A study of Mus musculus with 54 samples.

Results

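Genes whose products restrain inflammatory signalling were followed through the 54 bulk RNA-seq libraries of the series, as the 9 rows with their symbols (of 33280 gene symbols, 26332 of which had a count in any library). The rule names these genes and uses no measured value, but they were chosen with earlier results of these data known. 3 of them form the A20 axis (Tnfaip3, Tnip1, Tnip3), 3 belong to the suppressors of cytokine signalling (Socs1, Socs3, Cish), 2 act on mRNA (Zc3h12a, Zfp36) and 1 acts at the Toll-like receptor complex (Irak3). All 9 symbols were found in each of the 3 count tables, and Cish was the member with the fewest reads.

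The libraries came from microglia (MG) and from CNS-associated macrophages of mouse brain without the choroid plexuses (labelled CAMs, and in the study subdural CAMs or sdCAMs, the macrophages of the leptomeninges and perivascular spaces), in 18 groups of 3. Wild-type (WT) mice and mice labelled Ccr2 KO were untreated and given PBS (untreated+PBS), given the vehicle and lipopolysaccharide (Vehicle+LPS, CTL below), or given BLZ945 and LPS (BLZ945+LPS). Mice labelled Ccr2CreERT2/CreERT2:R26tdT/tdT (reporter below) all received BLZ945 and 2 mg doses of tamoxifen and then PBS or LPS, and their sdCAMs were sorted into tdT+ and tdT- cells. LPS or PBS was given 12 h before sorting, and LPS was given 8 weeks after the end of treatment. BLZ945 inhibits the CSF1 receptor and depletes these macrophages, which then repopulate. In the reporter, CreERT2 is expressed from the Ccr2 locus, so that tdT marks cells with Ccr2 expression at the time of tamoxifen, and their descendants. WT and Ccr2 KO controls received PBS without vehicle, so vehicle and LPS cannot be told apart in the CTL+LPS against untreated+PBS contrast. WT, Ccr2 KO and reporter libraries are in separate tables, and all reporter libraries are labelled batch 2 and all others batch 1, so genotype cannot be told apart from table or, for the reporter, from batch, and levels of the reporter were set beside the others with no test.

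LPS, a component of the bacterial outer membrane, activates Toll-like receptor 4, whose adaptor MyD88 recruits IRAK kinases and TRAF6 and releases NF-kappaB. NF-kappaB then induces, beside cytokines, genes whose products switch the pathway off. A20, the product of Tnfaip3, edits ubiquitin chains on RIPK1 and TRAF6, and the products of Tnip1 (ABIN-1) and Tnip3 (ABIN-3) are its ubiquitin-binding partners. IRAK-M, the product of Irak3, is a pseudokinase that holds back the IRAK complex. SOCS1, SOCS3 and CIS (the product of Cish) are induced by JAK and STAT signalling downstream of cytokines and block it. Regnase-1, the product of Zc3h12a, cuts cytokine mRNAs, and tristetraprolin, the product of Zfp36, binds AU-rich elements and speeds their decay.

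Depth ranged from 1705930 to 11330781 counts per library and was lowest among WT sdCAMs. WT sdCAM libraries had between 1705930 and 7699790 counts and WT MG libraries between 7497764 and 9506827. The summed level of 7 sdCAM markers was 0.416 to 30.6 CPM (the share of a library's counts on the usual per-million scale, adjusted by TMM factors) in every MG library and 3293 to 23747 CPM in all sdCAM libraries but 1. The exception was the tdT+ library of LPS mouse 5, with 919 CPM of sdCAM markers and 9813 CPM of 7 microglial markers, against 631 and 730 CPM of the latter in the other tdT+ LPS libraries. The spread between libraries also differed, with a common biological coefficient of variation of 0.70 in the fit of WT sdCAMs, 0.713 in that of reporter sdCAMs and 0.810 in that of reporter MG, against 0.257 in WT MG, 0.264 in Ccr2 KO MG and 0.453 in Ccr2 KO sdCAMs. Among Ccr2 KO libraries given LPS, titles name the other cell type than the characteristics do, and the characteristics, which the marker sums followed, were used. The columns of tdT- mouse 1 and tdT+ mouse 7, both LPS, carry conflicting indices and were used as named. As named, 2 of 24 mice had libraries that differed in sex-linked expression, and with these columns exchanged 0 of 24 did. The reporter sdCAM values after LPS thus rest on an assignment that sex-linked expression goes against. Values with the columns exchanged are given where a call or the direction of a printed value changed. The level of Ccr2 in untreated sdCAMs was 17 to 51 CPM in WT mice and 2.33 to 5.21 CPM in Ccr2 KO mice, and in CTL+LPS sdCAMs it was 0 to 0.755 and 3.05 to 5.48 CPM. In bulk samples, fewer cells of a type and less RNA per cell cannot be told apart.

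The promoters of 4 members are shown: Tnfaip3, Tnip1 and Tnip3, whose products work together, and Socs3, which changed the most among the well-detected members. The sequences are RefSeq's, on GRCm38.p6, from 250 bases before to 50 bases after the start site, read 5′ to 3′ along the gene. All 9 members matched an entry, Tnfaip3 and Irak3 with 2 windows each. Capitals mark the matches to 2 motifs of 9 letters, searched on both strands: GGGNNTTCC, a form of the kappaB site bound by NF-kappaB, and TTCNNNGAA, a form of the GAS site bound by STAT factors. Tnfaip3 lies at chr10:19000910-19015657 on the minus strand, and the window of its upstream start site is chr10:19015361-19015660. Tnip1 lies at chr11:54910785-54962917 on the minus strand, with the window chr11:54962891-54963190. Tnip3 lies at chr6:65525313-65634040 on the plus strand, with the window chr6:65590148-65590447. Socs3 lies at chr11:117966079-117970047 on the minus strand, with the window chr11:117969317-117969616. Gene positions are those of GENCODE M21 on the same build, in which Socs1 lies on chromosome 16, Cish on 9, Zc3h12a on 4, Irak3 on 10 and Zfp36 on 7.
Tnfaip3: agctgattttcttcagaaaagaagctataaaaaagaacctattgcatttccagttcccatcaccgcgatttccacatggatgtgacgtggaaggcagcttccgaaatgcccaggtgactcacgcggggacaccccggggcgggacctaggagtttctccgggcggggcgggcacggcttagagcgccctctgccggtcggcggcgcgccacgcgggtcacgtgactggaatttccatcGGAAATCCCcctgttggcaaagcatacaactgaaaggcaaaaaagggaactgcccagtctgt
Tnip1: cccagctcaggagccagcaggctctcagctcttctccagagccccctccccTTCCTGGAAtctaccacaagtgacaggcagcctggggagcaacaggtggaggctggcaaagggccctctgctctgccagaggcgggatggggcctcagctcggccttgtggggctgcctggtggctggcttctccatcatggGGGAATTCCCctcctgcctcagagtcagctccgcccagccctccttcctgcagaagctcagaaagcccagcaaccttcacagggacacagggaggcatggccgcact
Tnip3: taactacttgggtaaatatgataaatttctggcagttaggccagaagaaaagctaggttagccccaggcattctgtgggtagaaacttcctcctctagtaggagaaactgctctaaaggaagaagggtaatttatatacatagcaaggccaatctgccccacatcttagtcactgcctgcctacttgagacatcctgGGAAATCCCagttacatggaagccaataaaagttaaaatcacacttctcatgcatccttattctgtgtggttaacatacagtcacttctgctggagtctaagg
Socs3: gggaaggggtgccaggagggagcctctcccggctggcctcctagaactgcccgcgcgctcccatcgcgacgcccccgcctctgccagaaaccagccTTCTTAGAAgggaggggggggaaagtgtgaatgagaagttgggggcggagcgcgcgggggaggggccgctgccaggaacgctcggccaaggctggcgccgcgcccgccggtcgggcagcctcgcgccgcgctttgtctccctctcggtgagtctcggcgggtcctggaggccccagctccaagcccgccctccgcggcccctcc
The kappaB letters were found in 1912 of the 32851 RefSeq promoter windows (5.82%). Among the members they were in the windows of Tnfaip3 (bases -12 to -4 from the start site), Tnip1 (bases -57 to -49, with an overlapping match on the other strand at -56 to -48) and Tnip3 (bases -53 to -45). The GAS letters were in 2726 windows (8.3%), and among the members in those of Tnip1 (-199 to -191), Socs3 (-154 to -146), Zfp36 (-17 to -9) and Cish (1 to 9 and 12 to 20). Irak3, Zc3h12a and Socs1 had no match to either motif in these windows. These matches are descriptions of the sequence only.

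At rest the members lay far apart in level. Divided by exon length, Zfp36 was the highest member in every resting group, with a mean between 60.1 and 151 CPM per kb. In untreated WT MG, Zfp36 stood at 84.4 CPM per kb, Tnfaip3 at 12.1, Socs3 at 8.34, Tnip1 at 5.89, Zc3h12a at 3.75, Irak3 at 2.18, Socs1 at 1.82, Cish at 0.0221 and Tnip3 at 0.00274. In untreated WT sdCAMs, Zfp36 stood at 83.1 CPM per kb, followed by Irak3 at 6.80, Zc3h12a at 6.67, Tnip1 at 6.32 and Tnfaip3 at 4.97. Neighbours from Irak3 to Tnfaip3 in that order did not differ beyond the spread of their 3 libraries, whereas Zfp36 was above every other member in all of them. Cish had no read in any of the 9 WT sdCAM libraries, in which 3 counts correspond to 0.390 to 1.76 CPM. The plot of levels by library shows these differences for all 54 libraries.

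**Figure D1:**
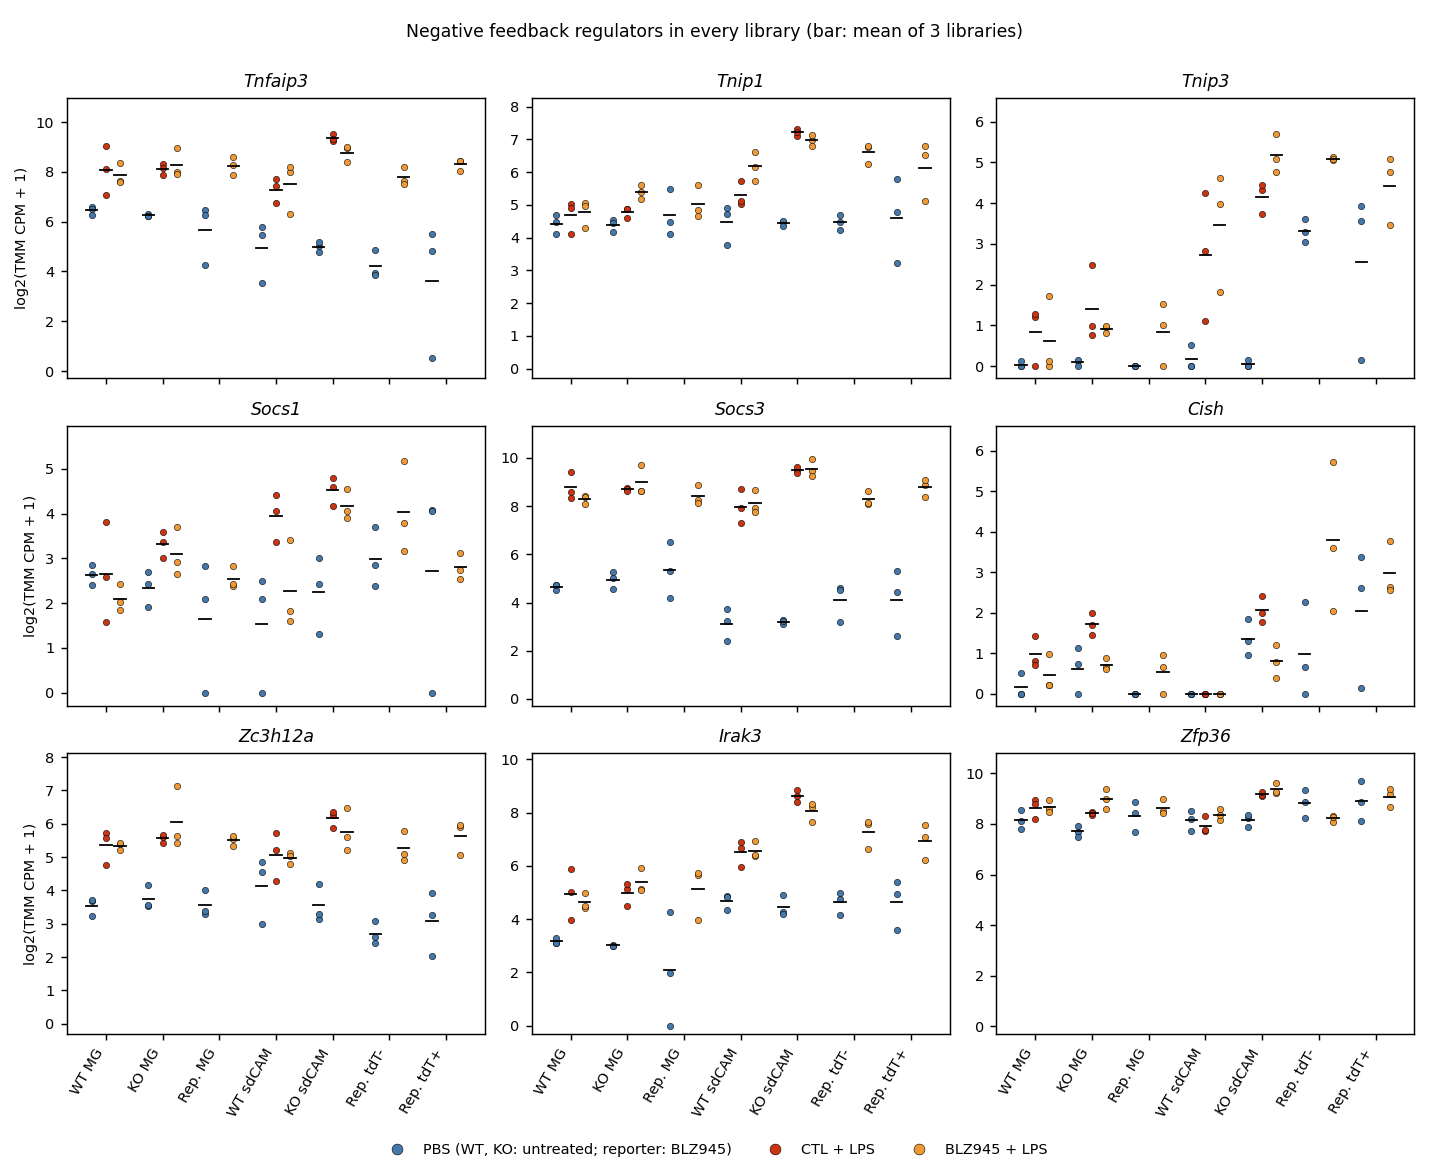
Level of each of the 9 genes in every library, as log2(TMM-scaled CPM + 1), for 7 populations on the x axis (Rep. is the reporter). Points are libraries, black bars are means of 3, and colours are the conditions. Socs3 and Tnfaip3 libraries after LPS lie above the PBS libraries in all 7 populations, Zfp36 lies between 180 and 835 CPM in all 54, and Cish is at 0 in all 9 WT sdCAM libraries.

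The first question was which members differed 12 h after LPS. A gene was called when the adjusted p of edgeR's quasi-likelihood test (Benjamini-Hochberg over all genes tested) was under 0.05 and its absolute log2 fold change over 1. In WT MG, 4 of 8 members tested rose and none fell, against 16.7% of all genes called. In Ccr2 KO MG, 6 of 9 rose and none fell, against 19.4% of all genes. In WT sdCAMs, 2 of 8 rose, against 6.32%, and in Ccr2 KO sdCAMs, 8 of 9 rose, against 21.5%. The median log2 fold change of the members tested was 1.89, 1.89, 2.19 and 2.83 in these 4 comparisons in the order given, and that of all genes tested lay between -0.08 and 0.02. Tnip3 had 1 or 2 PBS reads in each of these populations, so it could enter the test only through its LPS libraries, and its 2 calls, in Ccr2 KO MG and sdCAMs, are descriptions. Without Tnip3, 4 of 7, 5 of 8, 2 of 7 and 7 of 8 members rose in WT MG, Ccr2 KO MG, WT sdCAMs and Ccr2 KO sdCAMs, with medians of 1.84, 1.89, 2.05 and 2.74.

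In the reporter, where both arms had received BLZ945, no member of 7 tested was called in MG, in which 1.08% of all genes were called by edgeR. There, 3 members (Tnfaip3, Socs3 and Zc3h12a) had an unadjusted p under 0.05, as did 13.9% of all genes, and DESeq2 called those 3. In tdT- sdCAMs, 5 of 9 rose against 26.5% of all genes, and in tdT+ sdCAMs, 4 of 9 rose against 13.4%. With the conflicting columns exchanged, as many members but fewer of all genes were called in each fraction. With tdT- and tdT+ counts summed per mouse, 6 of 9 rose, against 25.1% of all genes. The PBS libraries of reporter MG had reads for 10815 to 12333 genes, against 12103 to 15011 in all other groups. Over the 7 populations Socs3 and Irak3 were called in 6, Tnfaip3 and Zc3h12a in 5, Tnip1, Tnip3 and Socs1 in 2, Zfp36 in 1 and Cish in 0 by edgeR, the 2 calls of Tnip3 being those in Ccr2 KO cells. No member was called lower after LPS in any of them.

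**Figure D2:**
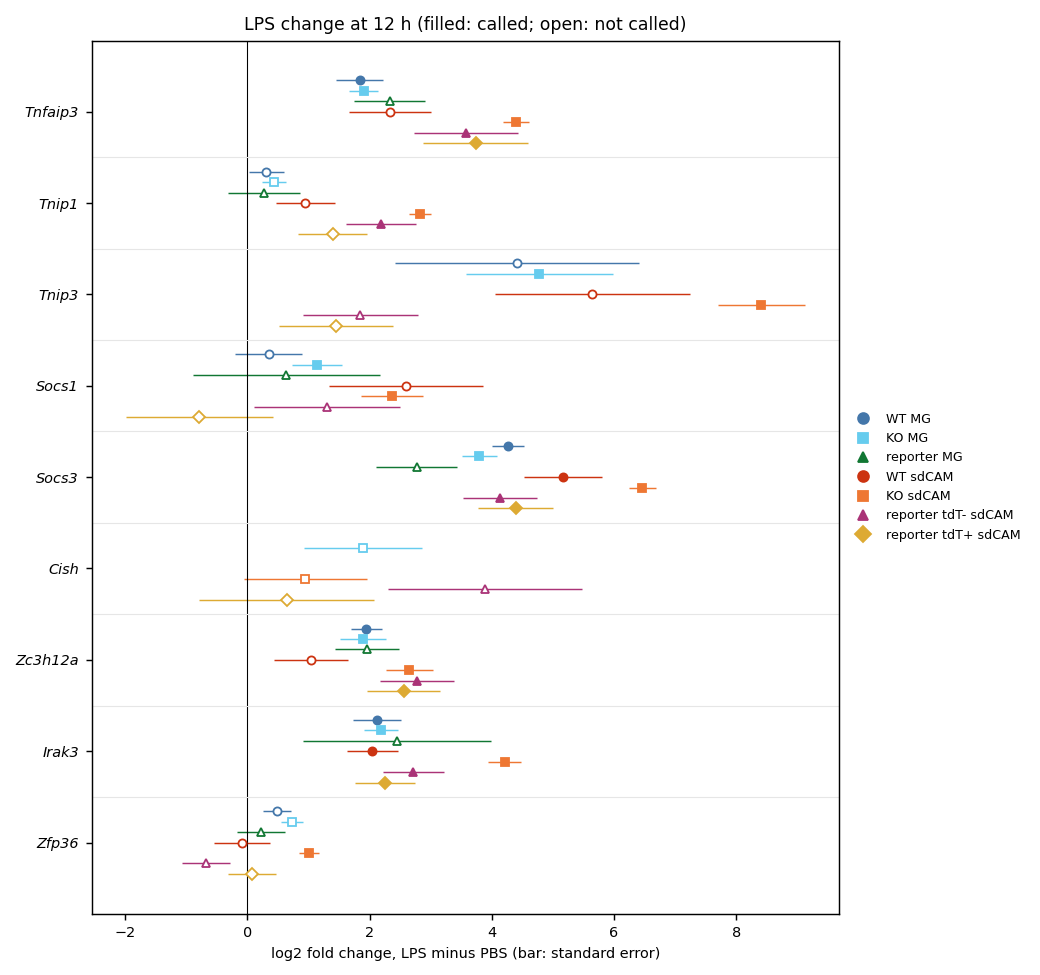
log2 fold change of each member between LPS and PBS in 7 populations (CTL+LPS against untreated+PBS in WT and Ccr2 KO, BLZ945+LPS against BLZ945+PBS in the reporter), with bars for the standard error, filled symbols for called genes and open ones for genes not called. Members not tested have no symbol. The Ccr2 KO sdCAM symbols of Tnfaip3, Tnip1, Socs3 and Irak3 lie at 4.39, 2.83, 6.47 and 4.21, to the right of the other populations.

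Tnfaip3 rose in both kinds of microglia to similar levels and in Ccr2 KO sdCAMs by a larger factor. Its level was 76.2, 90.3 and 95.2 CPM in untreated WT MG and 133, 275 and 526 CPM after LPS, and in Ccr2 KO MG it was 74.4, 74.6 and 78.3 CPM and then 236, 284 and 317 CPM. The groups did not overlap, and the log2 fold change was 1.84 ± 0.39 (SE, n = 3 against 3, adjusted p = 0.00409) in WT and 1.90 ± 0.24 (adjusted p = 3.28e-05) in Ccr2 KO MG. In Ccr2 KO sdCAMs the level went from 26.7, 31.4 and 35.5 CPM to 598, 631 and 734 CPM, a log2 fold change of 4.39 ± 0.21 (adjusted p = 2.99e-08). The LPS libraries lay far above the PBS libraries, with little spread in either group. WT sdCAMs had 10.5, 43.4 and 53.8 CPM at rest and 106, 170 and 209 CPM after LPS, also without overlap, but the change of 2.33 ± 0.67 did not pass (adjusted p = 0.0604). That comparison turned on the test, since DESeq2 gave an adjusted p of 0.00856 and the fit with the authors' mark on 6 of these libraries as a covariate gave 0.00705.

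In reporter sdCAMs Tnfaip3 rose in both sorted fractions. The tdT- libraries held 13.6, 14.1 and 28.1 CPM with PBS and 180, 197 and 291 CPM with LPS, a log2 fold change of 3.58 ± 0.85 (adjusted p = 0.00563). The tdT+ libraries held 0.451, 27.4 and 44.1 CPM with PBS and 260, 346 and 350 CPM with LPS, a change of 3.74 ± 0.86 (adjusted p = 0.00948). Without the tdT+ library of mouse 5, the change was 3.66 (adjusted p = 0.0163). In reporter MG the LPS libraries, at 235, 305 and 385 CPM, were all above the PBS libraries at 18.4, 76.0 and 87.8 CPM, and the change of 2.33 ± 0.58 did not pass (adjusted p = 0.109). Without the PBS library of mouse 175, which had the lowest Tnfaip3 level of that group and 0 reads of Socs1, Tnip3, Cish and Irak3, the adjusted p was 0.0346.

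Tnip1, the A20 partner that every population already expressed at rest, was called in Ccr2 KO and tdT- sdCAMs. Untreated levels ranged from 12.6 to 29.2 CPM over the 12 WT and Ccr2 KO libraries. Levels in Ccr2 KO sdCAMs went from 19.5, 21.2 and 21.6 CPM to 138, 148 and 157 CPM, a log2 fold change of 2.83 ± 0.18 (adjusted p = 2.44e-07). In tdT- sdCAMs the level was 17.9, 21.3 and 24.6 CPM with PBS and 75.1, 107 and 110 CPM with LPS, a change of 2.19 ± 0.57 (adjusted p = 0.0101, and 0.0506 without the PBS library of mouse 177). In MG the change was 0.31 ± 0.29 in WT mice (adjusted p = 0.448) and 0.43 ± 0.20 in Ccr2 KO mice (adjusted p = 0.105), with 95% intervals of -0.31 to 0.93 and 0.01 to 0.85. WT sdCAMs lay between these values, at 0.95 ± 0.48 (adjusted p = 0.243), with 31.5, 33.8 and 52.5 CPM after LPS. In tdT+ sdCAMs the change was 1.39 ± 0.56 (adjusted p = 0.113), where the library of mouse 5 held 33.7 CPM against 90.6 and 109 CPM in the others, and it passed without the PBS library of mouse 174 (adjusted p = 0.0362).

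Tnip3 was nearly undetected at rest in WT and Ccr2 KO cells and detected after LPS, mainly in sdCAMs. Reads summed over 3 libraries went from 1 to 442 in Ccr2 KO sdCAMs, where the 3 LPS libraries held 12.3, 18.9 and 20.7 CPM. The ratio of the scaled counts was 471-fold, with a 95% counting interval of 84.1 to 18648 (adjusted p = 2.6e-06). In Ccr2 KO MG the reads went from 2 to 74 and the LPS libraries held 0.688, 0.998 and 4.60 CPM, a 31.6-fold ratio (8.43 to 265, adjusted p = 0.00691), and without the highest of them the adjusted p was 0.0715. In WT sdCAMs the reads went from 1 to 69, a 74.7-fold ratio (13 to 2993), with 1.17, 6.14 and 18.1 CPM after LPS and an adjusted p of 0.0589. In WT MG they went from 1 to 32, a 27.9-fold ratio (4.66 to 1135, adjusted p = 0.115), and 1 LPS library had no read. These intervals cover counting error only.

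Repopulated reporter sdCAMs differed from this pattern, because Tnip3 was already detected with PBS. The 3 tdT- PBS libraries held 7.31, 8.84 and 11.2 CPM, and 2 of the tdT+ PBS libraries 10.9 and 14.1 CPM, whereas the third tdT+ library (mouse 175) held 0.113 CPM. No untreated WT or Ccr2 KO sdCAM library held more than 0.437 CPM. The reporter mice differed from those in genotype, tamoxifen, BLZ945 and table, which cannot be told apart here, and the difference was not tested. The Ccr2 level, which was 142 to 281 CPM in the same reporter PBS sdCAMs, was also higher than in any other group, and its part in the result was not tested. With LPS the tdT- libraries held 32.5, 32.9 and 33.8 CPM, and the log2 fold change of 1.85 ± 0.94 did not pass (adjusted p = 0.16). In the counts summed per mouse it was 1.55 ± 0.45 (adjusted p = 0.0302), a call that ended when the columns were exchanged (adjusted p = 0.0513) or when mouse 1, 7, 174, 175 or 177 was left out. Tnip1 in the summed counts changed by 1.68 ± 0.43 (adjusted p = 0.0184), a call that ended without mouse 1, 7, 175 or 177 (adjusted p up to 0.0757).

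Irak3, the inhibitor of the IRAK complex, rose in 6 of the 7 populations. In WT MG it went from 7.53, 7.55 and 8.93 CPM to 14.8, 31.8 and 57.4 CPM (log2 fold change 2.12 ± 0.39, adjusted p = 0.00195), and in Ccr2 KO MG from 6.94, 7.03 and 7.26 CPM to 21.8, 34.4 and 39 CPM (2.18 ± 0.28, adjusted p = 4.56e-05). The resting MG libraries lay close together and the LPS libraries were spread widely. In WT sdCAMs it went from 19.5, 27.5 and 28.0 CPM to 61.8, 101 and 118 CPM (2.05 ± 0.42, adjusted p = 0.0199), and leaving out either of 2 LPS libraries or any PBS library brought the adjusted p to between 0.0561 and 0.0955. In Ccr2 KO sdCAMs it went from 17.2, 18.1 and 29.0 CPM to 340, 388 and 463 CPM (4.21 ± 0.27, adjusted p = 2.59e-07). The tdT- and tdT+ changes were 2.72 ± 0.50 (adjusted p = 0.000866) and 2.25 ± 0.49 (adjusted p = 0.00724), and reporter MG gave 2.45 ± 1.54 (adjusted p = 0.579), with 0, 2.98 and 18 CPM in the PBS libraries. The 5′ end of Irak3 overlaps Tmbim4 on the opposite strand, and since the strand setting of the counting is not given, reads of that overlap cannot be told apart.

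Socs3, which blocks signalling by the interleukin-6 receptor family through JAK and STAT3, had the largest log2 fold change of the members with more than 3 resting reads in each of the 7 populations. It went from 21.7, 25.2 and 25.5 CPM to 324, 383 and 682 CPM in WT MG (log2 fold change 4.27 ± 0.27, adjusted p = 9.18e-07). In Ccr2 KO MG it went from 22.5, 31.7 and 37 CPM to 396, 416 and 432 CPM (3.79 ± 0.29, adjusted p = 4.51e-07). It was lower at rest in sdCAMs, at 4.28, 8.31 and 12.2 CPM in WT and 7.64, 8.49 and 8.61 CPM in Ccr2 KO mice. LPS libraries there held 157, 242 and 418 CPM in WT (5.17 ± 0.64, adjusted p = 0.00219) and 666, 732 and 793 CPM in Ccr2 KO mice (6.47 ± 0.22, adjusted p = 3.5e-09). In the reporter the change was 4.13 ± 0.61 in tdT- (adjusted p = 0.000132), 4.39 ± 0.61 in tdT+ (adjusted p = 0.000333) and 2.77 ± 0.66 in MG, where it did not pass (adjusted p = 0.099). The PBS library of mouse 175 had the highest resting MG level, 91.5 CPM against 17 and 39 CPM, and without it the reporter MG change was 3.65 (adjusted p = 0.0118).

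Socs1, the suppressor of interferon and JAK signalling, was low at rest and rose in Ccr2 KO cells. The level in Ccr2 KO sdCAMs went from 1.46, 4.41 and 7.10 CPM to 17.1, 23.2 and 26.8 CPM (log2 fold change 2.37 ± 0.51, adjusted p = 0.00378). In Ccr2 KO MG it went from 2.78, 4.37 and 5.49 CPM to 7.04, 9.29 and 11.1 CPM (1.14 ± 0.41, adjusted p = 0.0444), a call that ended when any 1 of 5 libraries was left out (adjusted p up to 0.149). In WT sdCAMs all LPS libraries (9.32, 15.7 and 20.4 CPM) were above all PBS libraries (0, 3.24 and 4.67 CPM), but the change of 2.60 ± 1.26 did not pass (adjusted p = 0.23). The tdT- and tdT+ values were 1.30 ± 1.20 (adjusted p = 0.447) and -0.79 ± 1.20 (adjusted p = 0.72).

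Cish, which is induced by STAT5, was the member with the least signal. Its highest group mean in WT and Ccr2 KO cells was 3.24 ± 0.96 CPM (SD, n = 3), in CTL+LPS Ccr2 KO sdCAMs. After LPS its log2 fold change was 1.89 ± 0.96 in Ccr2 KO MG (adjusted p = 0.147) and 0.95 ± 1.00 in Ccr2 KO sdCAMs (adjusted p = 0.54). In tdT- sdCAMs it was 3.16, 11.1 and 52.1 CPM with LPS against 0, 0.577 and 3.84 CPM with PBS (3.88 ± 1.59, adjusted p = 0.0823, and 0.0469 without the PBS library of mouse 175). DESeq2 (4.12, adjusted p = 0.0108) and edgeR with no low-count filter (3.75, adjusted p = 0.0198) called it there, and both also did in the counts summed per mouse (adjusted p = 0.0203 and 0.0455). The highest of these, mouse 1, is a column with a conflicting index, and with the columns exchanged the change was 2.09 (adjusted p = 0.381).

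Of the RNA-acting members, Zc3h12a rose in 5 populations. It went from 8.50, 11.9 and 12.0 CPM to 26.4, 46.3 and 51.8 CPM in WT MG (log2 fold change 1.94 ± 0.25, adjusted p = 0.000204) and by 1.88 ± 0.38 in Ccr2 KO MG (adjusted p = 0.00146). In Ccr2 KO sdCAMs it went from 7.91, 8.83 and 17.5 CPM to 57.6, 76.1 and 81.3 CPM (2.65 ± 0.39, adjusted p = 0.000243). It rose by 2.77 ± 0.61 in tdT- and by 2.56 ± 0.60 in tdT+ sdCAMs (adjusted p = 0.00324 and 0.0106). In WT sdCAMs the groups overlapped, with 6.89, 22.7 and 28.0 CPM at rest and 18.6, 35.9 and 51.7 CPM after LPS, and the change of 1.04 ± 0.61 did not pass (adjusted p = 0.318).

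Zfp36, the most abundant member at rest, was called in 1 population. In Ccr2 KO sdCAMs it went from 234, 297 and 328 CPM to 558, 558 and 614 CPM (log2 fold change 1.01 ± 0.16, adjusted p = 0.000483), just over the limit of 1, and leaving out either of 2 libraries took it to 0.90 and 0.97. In Ccr2 KO MG the change of 0.73 ± 0.18 had an adjusted p of 0.00546 but was under the fold limit. In WT cells it was 0.49 ± 0.23 in MG (adjusted p = 0.126) and -0.08 ± 0.46 in sdCAMs (adjusted p = 0.935). The reporter values were 0.22 ± 0.40 in MG (adjusted p = 0.891), -0.68 ± 0.39 in tdT- (adjusted p = 0.216) and 0.07 ± 0.39 in tdT+ sdCAMs (adjusted p = 0.929). With the columns exchanged they were -0.20 in tdT- and -0.28 in tdT+ sdCAMs, neither called.

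Markers of neutrophils moved with LPS in some sdCAM groups, and S100a8 also in other populations. The sum of 5 neutrophil markers was 359 to 3290 CPM in CTL+LPS WT sdCAMs against 0 to 94.2 CPM in untreated ones, and 571 to 2233 CPM in tdT- LPS libraries, whose PBS libraries had 0. In CTL+LPS Ccr2 KO sdCAMs it was 61.1 to 96.4 CPM, and S100a8, the only 1 of the 5 tested there, had a log2 fold change of 5.58. Ly6g and Retnlg were at 0 in all libraries of these 3 LPS groups, so the sums came from S100a8, S100a9 and Camp. S100a8 was also the only 1 of the 5 tested in the populations that follow. Its log2 fold change was 8.43 in WT MG, where a group had no read, and 6.20 in tdT+ sdCAMs. It was 3.79 ± 1.85 in reporter MG, where it was not called (adjusted p = 0.436), and -0.77 in Ccr2 KO MG. The part of these markers in the members' changes was not tested.

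The second question was how sdCAMs and MG of the same genotype compared. At rest, 2 of 8 members differed in WT mice, against 17.1% of all genes called, and 3 of 9 in Ccr2 KO mice, against 15.0%. Irak3 was higher in sdCAMs, by 1.66 ± 0.43 (log2, adjusted p = 0.014) in WT and 1.59 ± 0.29 (adjusted p = 0.000365) in Ccr2 KO mice. Socs3 was lower in sdCAMs, by -1.53 ± 0.45 (adjusted p = 0.0276) and -1.89 ± 0.28 (adjusted p = 4.16e-05). Tnfaip3 was lower in Ccr2 KO sdCAMs, by -1.29 ± 0.24 (adjusted p = 0.000487), and the WT difference of -1.28 ± 0.58 did not pass (adjusted p = 0.129). The WT calls of Irak3 and Socs3 ended when single untreated libraries were left out, with adjusted p from 0.0617 to 0.114.

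After LPS, 1 of 8 members differed between the cell types in WT mice, against 35.4% of all genes, and 5 of 9 in Ccr2 KO mice, against 18.4%. All 5 were higher in sdCAMs: Irak3 by 3.65 ± 0.29 (adjusted p = 1.54e-08), Tnip3 by 3.05 ± 0.61 (adjusted p = 0.000854), Tnip1 by 2.48 ± 0.17 (adjusted p = 3.62e-09), Socs1 by 1.30 ± 0.47 (adjusted p = 0.0467) and Tnfaip3 by 1.24 ± 0.23 (adjusted p = 0.000461). The Socs1 call ended with the mouse as a replicate block (adjusted p = 0.0593). The member called in WT mice was Irak3, at 1.49 ± 0.42 (adjusted p = 0.0102), and it was not called without 1 WT MG library, that of LPS mouse 4 (adjusted p = 0.0519). Tnfaip3 in WT mice was -0.89 ± 0.56 (adjusted p = 0.222), with an interval of -2.08 to 0.29.

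The LPS change itself differed between the cell types for 4 of 9 members in Ccr2 KO mice, against 6.88% of all genes. The change was larger in sdCAMs for Socs3, by 2.71 ± 0.37 on the log2 scale (adjusted p = 8.33e-05), for Tnfaip3, by 2.52 ± 0.33 (adjusted p = 5.67e-05), for Tnip1, by 2.43 ± 0.24 (adjusted p = 2.77e-06), and for Irak3, by 2.06 ± 0.39 (adjusted p = 0.00186). In these mice Tnfaip3 thus went from lower in sdCAMs at rest to higher after LPS, whereas Irak3 was higher in both states. In WT mice no member of 8 was called, against 1.32% of all genes called by edgeR, none had an unadjusted p under 0.05 (17.8% of all genes did), and DESeq2 also called none. The WT values were 0.82 ± 0.61 for Socs3, 0.39 ± 0.80 for Tnfaip3, 0.56 ± 0.57 for Tnip1 and -0.17 ± 0.58 for Irak3. Their 95% intervals, of which that of Tnfaip3 ran from -1.28 to 2.06 and that of Socs3 from -0.46 to 2.11, were wide.

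**Figure D3:**
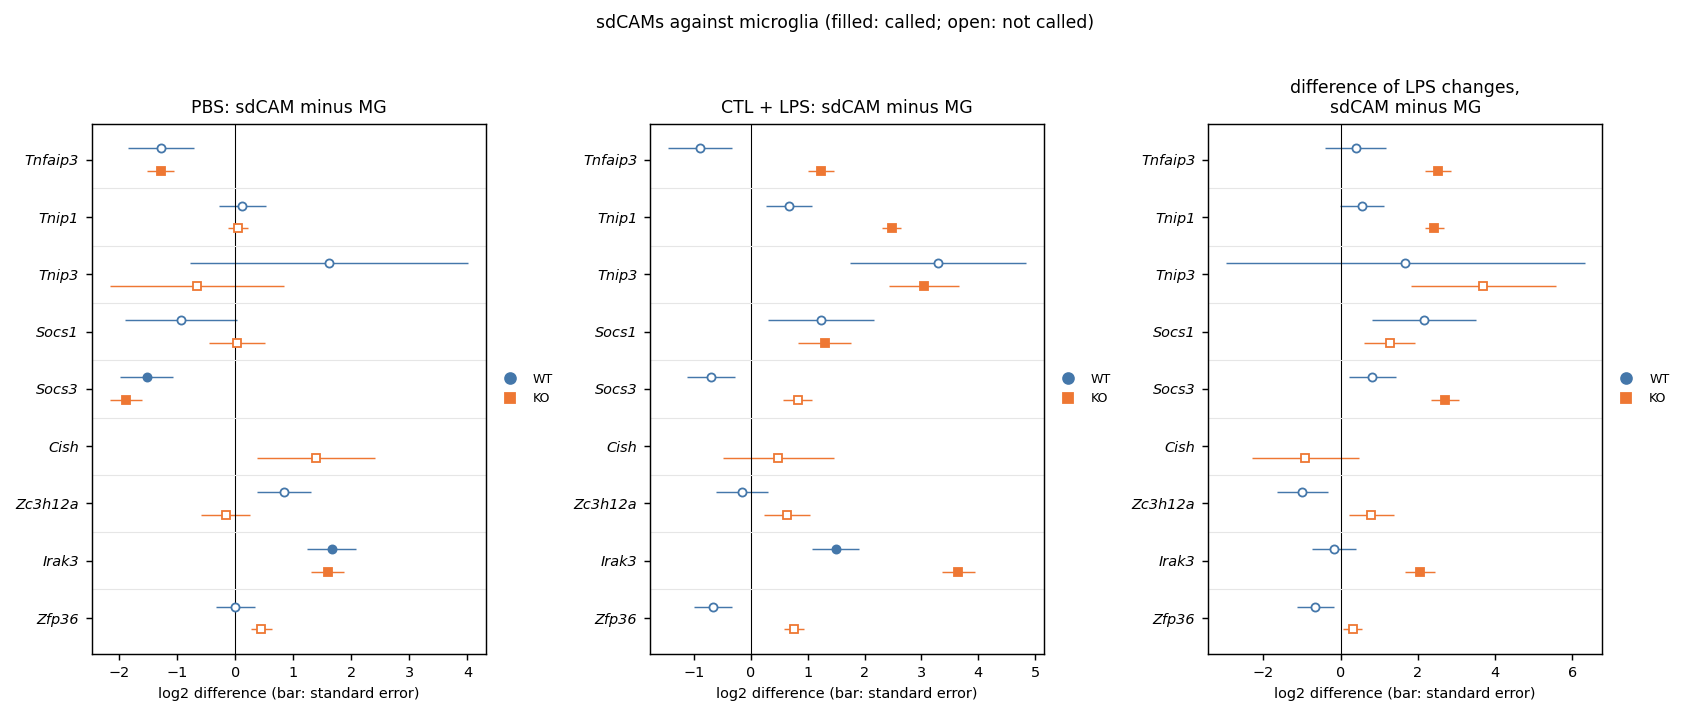
log2 difference between sdCAMs and MG at rest (left), after CTL+LPS (middle), and the difference between their LPS changes (right), for WT (circles) and Ccr2 KO mice (squares), with bars for the standard error and filled symbols for called members. Cish was not tested in WT mice. In the right panel the Ccr2 KO symbols of Tnfaip3, Tnip1, Socs3 and Irak3 are filled, at 2.52, 2.43, 2.71 and 2.06.

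The genotypes were compared across their tables. At rest no member of 9 was called between Ccr2 KO and WT MG (5.52% of all genes called by edgeR, 1 member, Zfp36, and 30.9% of all genes at an unadjusted p under 0.05, and 0 members by DESeq2) or sdCAMs (9.50% of all genes called, 1 member, Cish, and 26.9% of all genes at an unadjusted p under 0.05, and 0 members by DESeq2). Cish was at 0 in all untreated WT sdCAMs and at 0.931, 1.46 and 2.60 CPM in Ccr2 KO sdCAMs, levels near the 3-count limit of the shallower WT libraries. The LPS change differed for no member in MG, where edgeR and DESeq2 called none, none had an unadjusted p under 0.05 (4.05% of all genes did), and 0% of all genes were called. In sdCAMs edgeR also called no member and 0% of all genes. There, 13.5% of all genes had an unadjusted p under 0.05, and the median difference of all genes was 0.17, in the direction of a larger change in Ccr2 KO sdCAMs. Of the members, 6 had an unadjusted p under 0.05, all with a larger change in Ccr2 KO sdCAMs: Irak3 by 2.35 ± 0.48 (adjusted p = 0.162), Tnfaip3 by 2.25 ± 0.70 (0.221), Tnip1 by 2.07 ± 0.48 (0.188), Zc3h12a by 1.80 ± 0.71 (0.279), Socs3 by 1.48 ± 0.59 (0.28) and Zfp36 by 1.29 ± 0.44 (0.23). DESeq2 called Irak3 (adjusted p = 0.00543) and Tnip1 (adjusted p = 0.0202). The WT sdCAM libraries in this contrast had 1929070 to 7699790 counts and the Ccr2 KO ones 7887891 to 9926957. Their TMM factors over all 54 libraries were 0.344 to 1.19 in WT and 0.956 to 1.07 in Ccr2 KO mice.

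The third question was whether repopulated cells answered LPS with other levels than cells that were never depleted. edgeR called no member between BLZ945+LPS and CTL+LPS in any of 4 populations, and neither did DESeq2. The share of all genes called was 0.0763% in WT MG, 0.0173% in Ccr2 KO MG, and 0% in WT and in Ccr2 KO sdCAMs. Unadjusted p was under 0.05 for 1, 2, 0 and 3 members in WT MG, Ccr2 KO MG, WT sdCAMs and Ccr2 KO sdCAMs, against 6.58%, 6.65%, 7.22% and 8.36% of all genes. In WT MG this was Socs3, at -0.53 ± 0.23 (adjusted p = 0.739), and in Ccr2 KO MG it was Tnip1, at 0.62 ± 0.19 (adjusted p = 0.641), and Zfp36, at 0.59 ± 0.18 (adjusted p = 0.627).

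In Ccr2 KO sdCAMs the 3 members were Tnfaip3, Irak3 and Tnip3. Tnfaip3 was at 336, 492 and 504 CPM in repopulated cells, below all 3 CTL libraries, a log2 difference of -0.58 ± 0.18 (interval -0.98 to -0.18, adjusted p = 0.466). Irak3 was at 202, 296 and 323 CPM, also below all CTL libraries, a difference of -0.56 ± 0.23 (adjusted p = 0.558). Tnip3 was at 26.0, 32.6 and 50.9 CPM, above all CTL libraries, a difference of 1.05 ± 0.40 (adjusted p = 0.531). Cish was lower in every BLZ945 library than in every CTL library of both Ccr2 KO cell types, with differences of -1.80 ± 0.96 in MG (adjusted p = 0.795) and -2.04 ± 1.04 in sdCAMs (adjusted p = 0.632). It rested on few reads, 5, 6 and 9 against 20, 26 and 39 in MG and 3, 7 and 13 against 23, 23 and 35 in sdCAMs. The share of all genes that separate groups of 3 in this way is not given here, so these separations are descriptions. The intervals show what these groups of 3 could resolve: for Socs3 they ran from -0.33 to 0.42 in Ccr2 KO sdCAMs and from -1.17 to 1.17 in WT sdCAMs. In repopulated WT sdCAMs the library of mouse 12 stood apart, with 7533882 counts and a TMM factor of 0.369, against 2433287 and 1705930 counts and factors of 1.21 and 1.28 in the others. It differed from them by a chi-square per gene of 340 and 322, and they differed from each other by 20.4. It is also the only repopulated WT sdCAM library with the authors' mark, which all 3 CTL libraries carry. The CTL libraries had TMM factors of 0.344, 0.360 and 0.494, near that of mouse 12 and below those of the other repopulated libraries. The factor thus went in part with BLZ945 here, and its part in the differences was not tested. The Tnfaip3 difference in WT sdCAMs was 0.28 ± 0.63 (adjusted p = 0.918). It was 0.65 ± 0.58 without the library of mouse 12 (adjusted p = 0.586) and -0.79 ± 0.65 with the mark as a covariate (adjusted p = 0.998). Its direction thus turned with the mark, and no member was called in either setting. These comparisons share their CTL+LPS libraries with the LPS contrasts.

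**Figure D4:**
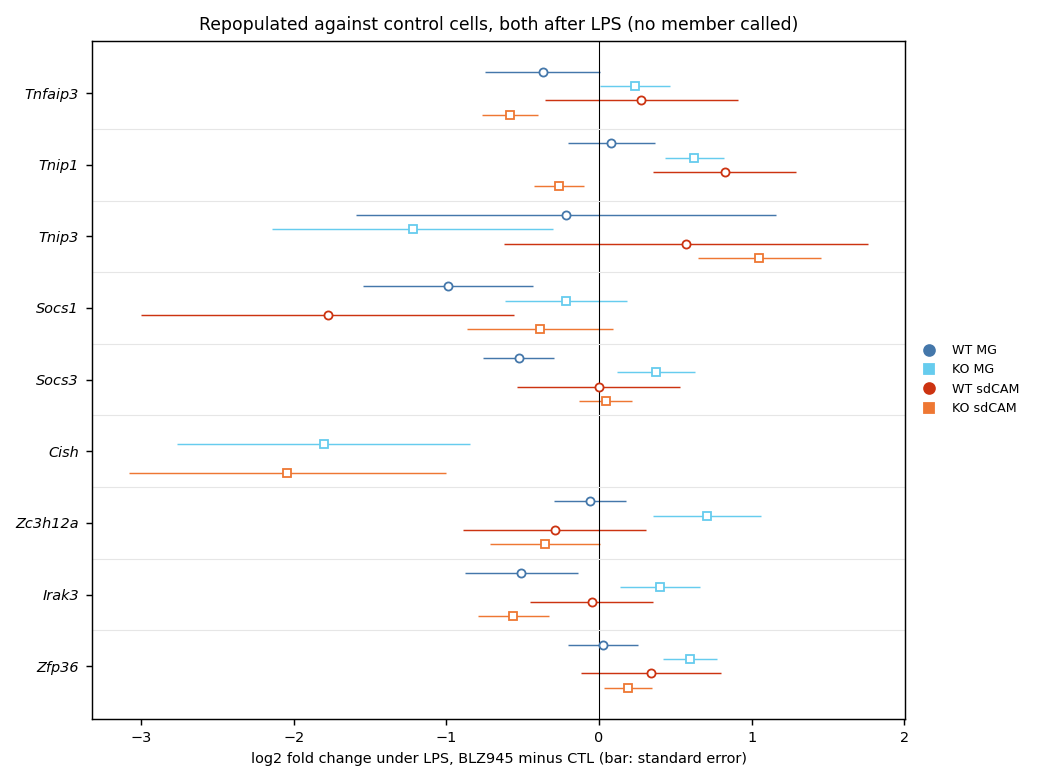
log2 fold change of each member between BLZ945+LPS and CTL+LPS in 4 populations, with bars for the standard error. All symbols are open because no member was called, and Cish, with few reads, is furthest from 0 at -1.80 in Ccr2 KO MG and -2.04 in Ccr2 KO sdCAMs.

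Repopulated sdCAMs of the reporter were also compared by lineage mark. Between tdT+ and tdT- cells no member of 9 was called at rest (0.0236% of all genes called by edgeR, 0 members and 4.45% of all genes at an unadjusted p under 0.05, and 0 members by DESeq2) or after LPS (10.6% of all genes called, 1 member and 24.4% of all genes at an unadjusted p under 0.05, and 0 members by DESeq2). That member was Zfp36, with 408, 576 and 668 CPM in tdT+ and 269, 309 and 315 CPM in tdT- LPS libraries, a log2 difference of 0.89 ± 0.40 (adjusted p = 0.179). No tdT+ library was as low as the highest tdT- library, but with the columns exchanged the difference was 0.06 and no gene of the whole table was called after LPS. Socs3 differed by 0.52 ± 0.53 (interval -0.61 to 1.66) and Tnfaip3 by 0.52 ± 0.77 (interval -1.12 to 2.15), and with the columns exchanged by 0.13 and -0.03. The calls of the LPS contrast within each fraction were as many with the columns exchanged, 5 in tdT- and 4 in tdT+. The tdT+ LPS library of mouse 5, at 408 CPM of Zfp36, held more microglial than sdCAM markers and is part of these comparisons. No member was called between the fractions after LPS when any library was left out.

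Other inhibitors and targets of the same pathways were described by lists. IkappaB proteins, which hold NF-kappaB in the cytoplasm or modify it in the nucleus, were called higher for 3 of 6 in WT MG, 1 of 6 in WT sdCAMs, 4 of 6 in Ccr2 KO MG and 5 of 6 in Ccr2 KO sdCAMs, and none was called lower. Their median log2 fold changes were 1.66, 1.46, 2.25 and 1.88, against medians of all genes between -0.08 and 0.02. The shares of all genes called, higher or lower, were 16.7%, 6.32%, 19.4% and 21.5% in the same order, also for the phosphatases below. Nfkbia, the classical inhibitor, rose in all 7 populations, by 2.65 ± 0.20 in WT MG (adjusted p = 3.88e-06), 3.94 ± 0.69 in WT sdCAMs (adjusted p = 0.0116) and 3.51 ± 0.16 in Ccr2 KO sdCAMs (adjusted p = 1.72e-08). MAP kinase phosphatases, which switch off p38, JNK and ERK, were called higher for 3 of 6, 2 of 4, 4 of 6 and 3 of 6 in the same order, and Dusp6 was called lower in Ccr2 KO sdCAMs. Of the 2 calls in WT sdCAMs, that of Dusp2, which had no read in a group there, is a description. Dusp1 rose by 5.32 ± 0.40 in WT MG (adjusted p = 3.72e-06) and 5.61 ± 0.34 in Ccr2 KO sdCAMs (adjusted p = 1.89e-07).

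Of the close relatives of the members in 3 lists, 3 of 20 were called after LPS in WT MG, 1 of 17 in WT sdCAMs, 2 of 20 in Ccr2 KO MG and 3 of 19 in Ccr2 KO sdCAMs, shares of 15%, 5.88%, 10% and 15.8% that lay near or below those of all genes (16.7%, 6.32%, 19.4% and 21.5%). In the reporter, 1 of 19 was called in MG, 6 of 19 in tdT- and 2 of 19 in tdT+ sdCAMs. Those shares were 5.26%, 31.6% and 10.5%, against 1.08%, 26.5% and 13.4% of all genes. Of 8 A20 partners and other deubiquitinases, none was called in WT MG, WT sdCAMs and Ccr2 KO MG and 1 in Ccr2 KO sdCAMs, the adaptor Tax1bp1, at 1.82 ± 0.27 (adjusted p = 0.000282). Their median was 0.06, -0.96, -0.03 and -0.19. Among 5 other SOCS genes, Socs2 was the only one called in WT MG, at 3.66 ± 0.52 (adjusted p = 0.000364), and in Ccr2 KO MG, and none was called in WT or Ccr2 KO sdCAMs. Among 7 relatives of Zfp36 and Zc3h12a, Zc3h12c was called higher in WT MG (1.70 ± 0.31, adjusted p = 0.00168), Ccr2 KO MG and Ccr2 KO sdCAMs. Zfp36l2, a relative of tristetraprolin, was called lower in sdCAMs, by -2.63 ± 0.58 in WT (adjusted p = 0.025), -1.83 ± 0.25 in Ccr2 KO (adjusted p = 0.000126) and -2.55 ± 0.33 in tdT- cells (adjusted p = 4.53e-05).

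Of 8 other inhibitors of the Toll-like receptor pathway, the adaptor Dok3 was called higher in WT MG (1.20 ± 0.14, adjusted p = 0.000114), Ccr2 KO MG and Ccr2 KO sdCAMs. Cd200r1, the receptor for the inhibitory ligand CD200, was called lower in Ccr2 KO MG, at -1.54 ± 0.30 (adjusted p = 0.00105), and in Ccr2 KO sdCAMs, at -2.09 ± 0.32 (adjusted p = 0.000336). The cytokine and chemokine genes that the pathway induces were called higher for 6 of 8 in WT MG, 5 of 7 in WT sdCAMs, 7 of 8 in Ccr2 KO MG and 8 of 10 in Ccr2 KO sdCAMs, with medians of 4.24, 4.89, 4.90 and 4.22. Il12b had no read in a group of both Ccr2 KO contrasts, so its test there is a description. The shares of all genes called were 16.7%, 6.32%, 19.4% and 21.5% in the same order, also for the receptors and immediate early genes below. Tnf rose by 5.01 ± 0.63 in WT MG (adjusted p = 0.00016). Of 16 receptors and signal transducers on which the members act, 3, 0, 3 and 4 were called higher and 1, 0, 1 and 1 lower in the same order, with medians between 0.04 and 0.31. Immediate early genes, which can follow from cell isolation, were called higher for 5 of 14, 1 of 13, 5 of 14 and 5 of 12, and lower for 2, 0, 1 and 0, so they moved with LPS in 3 of these populations, and their part in the members' changes was not tested.

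The genes most like each member were found by Pearson correlation of log2(CPM + 1) over the means of the 18 groups, which share libraries, depth and the LPS contrast, among 8626 or 8627 other named genes whose mean level reached 10 CPM. Tnfaip3 was most like P2ry2 (r = 0.98), Socs3 (0.95) and Pfkfb3 (0.95), and Socs3 most like P2ry2 (0.98), Nfil3 (0.98) and Il15ra (0.97). Zc3h12a was most like Ell2, P2ry2 and Tnfaip3 (0.94 each), so that 3 members shared a neighbour. Irak3 was most like Ift57 (0.98), Clec4e (0.96) and Birc3 (0.96). Tnip1 was most like Nus1 (0.94), Csf3 (0.93) and Cd47 (0.93), and Tnip3 like Gda, Jaml and Glipr2 (0.94 each). Likeness was lower for Socs1 (Sertad1, 0.88), Zfp36 (Ogfr, 0.84) and Cish (Ppfibp1, 0.79).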

How the data were processed

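Macrophages sorted from mouse brain were profiled by bulk RNA-seq in 54 libraries, 18 groups of 3. From picogram inputs of RNA, the authors prepared cDNA (SMARTer Ultra Low Input kit) and Nextera XT libraries, read from 1 end, and converted the output with bcl2fastq 2.20, aligned reads with STAR 2.7.11a and counted them per gene with featureCounts 2.0.8 (versions per the labels' processing notes and the study's methods). The methods name Gencode M36 with mm10 or GRCm39 without saying which, and the strand setting is not given in the sources used here. What the authors deposited are 3 tables of raw counts, a row for each gene symbol and 18 libraries in each table. Without molecular identifiers, amplification duplicates stayed in the counts, and counting intervals and floors cover counting error only. WT sdCAM libraries that the labels mark as IEG_correction (6 libraries) were used as deposited, and what the mark means is not stated.

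Groups were taken from the labels. The counts were tested with edgeR 4.0.16 (R 4.3.3, limma 3.58.1) by the quasi-likelihood F test, two-sided, after filterByExpr and TMM scaling, and p-values were adjusted by Benjamini-Hochberg across every gene tested. A gene was called at an adjusted p under 0.05 and an absolute log2 fold change over 1. Each fit held the groups of 1 cell type and genotype, or of both cell types or both genotypes where these were compared, and groups of a fit share 1 estimate of the spread. A member that passed the filter only through the group where it is high could hardly fail to differ. Standard errors are the absolute log2 fold change over the square root of F, and 95% intervals use the t quantile at the fit's total degrees of freedom. Floors are 3 counts, and ratios of summed counts have exact intervals. Statements that groups do not overlap are descriptions, since the share of all genes without overlap is not given here. Levels are CPM scaled by TMM over all 54 libraries, divided by the exon-union length of GENCODE M21 (GRCm38) where genes were compared. The code was tested on simulated data with known changes.

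MG and sdCAMs, or tdT+ and tdT- cells, of 1 mouse carry the same number in the labels, taken here as the mouse, which is where the pairing comes from. The correlation of their deviations from the group means was -0.127 to 0.330 over 9 pairs in Ccr2 KO, 0.000734 to 0.202 over 9 in WT and 0.0779 to 0.211 over 6 in reporter mice. As named, 2 of 24 mice had libraries that differed in sex-linked expression, and with the 2 conflicting columns exchanged 0 of 24 did. No pair of replicates agreed within sampling noise (chi-square per gene at least 7.76 over 54 pairs). The labels give libraries of 1 group different numbers, taken here as separate mice; if they were not, the p-values measure only the spread between these libraries.

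Alternatives were DESeq2 1.42.0, its size factors, 2 other low-count rules, no fold limit, only the groups compared, the mouse as a block, the mark as a covariate or as a filter, the exchanged columns, and leaving out each library. The members and gene lists were chosen with earlier results of these data known, so no p was adjusted over a list. The text names all 9 members, up to 2 called genes with the smallest p of every other list in a comparison, and the 3 genes most like each member.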

Additional observations from a re-analysis of the deposited data

Results flagged for a closer look

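The LPS change of 4 members differed between sdCAMs and MG of Ccr2 KO mice by the test of the difference itself, which is what brought them here. The difference, sdCAM minus MG on the log2 scale, was 2.71 for Socs3 (adjusted p = 8.33e-05), 2.52 for Tnfaip3 (adjusted p = 5.67e-05), 2.43 for Tnip1 (adjusted p = 2.77e-06) and 2.06 for Irak3 (adjusted p = 0.00186), by edgeR. All 4 were called under each of the 18 alternatives run, leaving out each library, the mouse as a replicate block and DESeq2 included. The same differences in WT mice were 0.82, 0.39, 0.56 and -0.17, none called, and whether they differed from those in Ccr2 KO mice was not tested as such.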

How the results depend on the processing

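The number of members called stayed within 1.5 times its main value in 19 of the 24 comparisons under every alternative run. In several of these, such as those between BLZ945+LPS and CTL+LPS, it was 0 in every setting. Over all comparisons 18 of 314 values moved further. Of 2707 values of single members under the alternatives, 41 lost a call and 32 gained one, and no called member changed sign. In the LPS contrast of WT sdCAMs, 2 members were called, and 4 with DESeq2, with the mark as a covariate and with no low-count filter (Tnip3 and Tnfaip3 added), and 1 to 2 with 1 library left out. In reporter MG the count of 0 became 3 with DESeq2, 1 with no filter and 0 to 2 with 1 library left out. The genotype difference of the sdCAM LPS changes had 0 members called, against 2 with DESeq2 and 2 with no filter. With 1 library left out, the count at rest between WT sdCAMs and MG was 0 to 2 and that after LPS 0 to 1. The cause of these moves was not tested. With the mouse as a replicate block, only the call of Socs1 between Ccr2 KO sdCAMs and MG after LPS ended (adjusted p = 0.0593) and no other member's call changed.

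Over all genes, the count for WT sdCAMs and LPS was 664, and 1655 with DESeq2, 1518 with no filter, 1359 with only the 2 groups, 1301 with marked libraries and 1117 with the mark as a covariate. For reporter MG, 118 became 853 with DESeq2 and 268 with no filter, and for the sdCAM genotype contrast at rest 1260 became 2149 with DESeq2. The WT interaction went from 174 to 867 with DESeq2, 838 with no filter and 91 with the block, and the WT resting contrast from 2242 to 1380 with the block. With the 2 columns exchanged, 3371 became 1513 in tdT-, 1698 became 1097 in tdT+ and 1352 became 0 between them after LPS, with or without the block. Between tdT+ and tdT- with PBS, 3 became 81 with DESeq2, 105 with no filter, 16 with the study's low-count rule and 10 with the block. With no fold limit, 1972 became 3643 in WT MG and LPS, 2243 became 4036 in Ccr2 KO MG and LPS, and 686 became 2170 between genotypes in resting MG. The genotype differences of the LPS changes went from 0 to 247 with DESeq2 and 622 with no filter in sdCAMs, and from 0 to 1 and 31 in MG. For repopulated against control cells, the counts with DESeq2, no filter and only the 2 groups were 49, 108 and 2 in WT MG (main value 9) and 27, 70 and 0 in Ccr2 KO MG (main value 2, and 5 with the study's rule). They were 63, 145 and 2 in Ccr2 KO sdCAMs (main value 0, and 1 with the study's rule or DESeq2's size factors), and 11 with DESeq2 and 43 with no filter in WT sdCAMs (main value 0). DESeq2's size factors moved members by a median of 0.26 (log2) between WT sdCAMs and MG after LPS, 0.16 in the WT interaction, 0.19 in tdT- and LPS, -0.18 in the sdCAM genotype difference and -0.13 between tdT+ and tdT- after LPS. The split of higher and lower calls then went from 2514 and 2137 to 2853 and 1521, from 57 and 117 to 70 and 87 in the interaction, and from 475 and 877 to 319 and 968 between tdT+ and tdT-. Depth limited Tnip3 and Cish, where 3 counts were 0.265 to 1.76 CPM.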
